A study of Sus scrofa with 8 samples.

Results

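Transcripts of 5 enzymes that handle alcohols, aldehydes, peroxide and esters were followed in whole blood of miniature pigs: ALDH2, AKR1A1, AKR1B1, CAT and CES1. Their probes were those of the array whose gene name is a member, or whose description gives the member's symbol, full name or enzyme name. Enzyme names included aldehyde reductase for AKR1A1, aldose reductase for AKR1B1, and pig carboxylesterase without a number for CES1. A probe of AKR1B1 was matched instead through its gene name ALR2, a synonym in the RefSeq pig gene table. This gave 14 of the 43603 probes, and 8 of the 14 passed the filter on dim probes, among 17352 that did so on the whole array. The study compared blood of 4 samples from pigs fed SDW (shochu distilled water, a liquid left from distilling the Japanese spirit shochu) with 4 samples from pigs on a control diet of standard dry feed. All were female Clawn miniature pigs, 8 to 9 months old. The SDW feed was the same dry feed mixed with water and SDW in equal parts by weight. The design puts blood sampling at 12 weeks of feeding, whereas the descriptions of single samples name week 14 for both first replicates and then 15, 16 and 17 for the following ones. The labels do not number the animals, so the errors below measure the spread between samples. Neither the ethanol content of the liquid nor that of the blood is given.

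Ethanol is oxidised to acetaldehyde mainly by alcohol dehydrogenases, with smaller parts played by the microsomal enzyme CYP2E1 and by catalase. Acetaldehyde is then oxidised to acetate, chiefly by the mitochondrial aldehyde dehydrogenase ALDH2, and acetate is activated to acetyl-CoA. Aldo-keto reductases such as AKR1A1 and AKR1B1 run the other way and reduce aldehydes to alcohols with NADPH. Carboxylesterases such as CES1 split esters and, in humans, can also join fatty acids to ethanol. Most of this chemistry is known from liver, and blood cells carry a part of it.

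Each gene was read by probes of 60 bases, named here by the base of the target sequence at which they start, as the scanner files give it. ALDH2 had probes at 487, 1184 and 1987. AKR1A1 had probes at 207 and 954, under its older name ALR1, and a further probe at 443 described as a rat sequence. AKR1B1 had probes at 847 and 1352 under its older name ALR2, and others at 588 and 741 described from cattle and pig. CAT had probes at 729 and 2095, and CES1 had probes at 357 and 1030 that the array calls CES3 and the RefSeq pig gene table calls CES1. Between 35% and 55% of the bases of these probes were G or C. Values below differ between probes of the same gene, which also differ in brightness, and the source of this was not tested. The sequences of measured probes are shown because a probe reads only its own stretch:
ALDH2 probe at 1184: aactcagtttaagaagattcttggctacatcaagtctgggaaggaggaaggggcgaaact
AKR1A1 probe at 207: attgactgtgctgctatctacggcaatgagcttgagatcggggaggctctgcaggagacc
AKR1B1 probe at 847: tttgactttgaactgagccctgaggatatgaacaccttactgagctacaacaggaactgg
CES1 probe at 357: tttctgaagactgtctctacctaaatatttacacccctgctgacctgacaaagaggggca

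The AKR1A1 probe at 954 and the probe at 443 described as rat could be aligned with each other. Without gaps, they share 53 positions, of which 43 are equal and 10 differ. Both are shown 5′ to 3′ with the differing bases in capitals, since the first was bright in every sample and the second was not well above background in any:
AKR1A1 probe at 954: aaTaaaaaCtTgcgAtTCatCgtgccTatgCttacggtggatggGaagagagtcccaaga
AKR1A1 probe at 443: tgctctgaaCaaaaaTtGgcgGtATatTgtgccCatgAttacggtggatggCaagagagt
The background-subtracted signal of the probe at 443 was 2.20, 2.41, 2.48 and 2.58 in the SDW samples, against 4.60, 2.48, 2.52 and 2.29 in the control samples. The probe at 954 gave between 1962 and 4676 in the SDW samples, against between 1590 and 2297 in the control samples. No other pair of the probes matched at more than 55.3% of its aligned bases, over at least 30 bases.

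The level of a probe is given as log2 of its processed intensity minus that of the 75th percentile of its array, so a level of 0 equals the 75th percentile. That percentile lay between 39.9 and 73.1 intensity units, and between 35.2% and 43.5% of probes were flagged as well above background on an array, with 0 saturated. A probe was kept when 4 or more of the 8 arrays flagged it so. Of the 8 kept member probes, 6 were well above background in every sample, while ALDH2 at 1184 was so in 3 SDW and 4 control samples and CES1 at 357 in 4 SDW and 3 control samples. The other 6 member probes were not well above background on any array, with signals between 1.79 and 8.24. A further probe, starting at 691 and described as a fragment of a fungal catalase, was set apart and not counted. The arrays lay on 3 slides. Slide 1 held SDW 2, SDW 3 and control 3. Slide 2 held SDW 1, control 2 and control 4, and slide 3, scanned on a second day, held SDW 4 and control 1.

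The 5 genes were measured in the blood of pigs on both diets, and none differed between SDW and control beyond the spread of the samples. By limma's test with Benjamini-Hochberg adjustment over the 17352 kept probes, 0 of the 8 member probes passed an adjusted p of 0.05, where 0% of all kept probes did. At an unadjusted p under 0.05 it was 0 of 8, where 1.45% of all kept probes passed. The adjusted p of each of the 8 rounded to 1.00. The range of the SDW samples overlapped that of the control samples for all 8, while 0.985% of all kept probes did not overlap. By mean, 5 of the 8 were higher in SDW and 3 lower, with a median log2 difference (SDW minus control) of 0.12, where 52.9% of all kept probes were higher and their median was 0.018. These intervals leave room for differences that the arrays could not show: the median SE of a difference over all kept probes was 0.30.

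**Figure D1:**
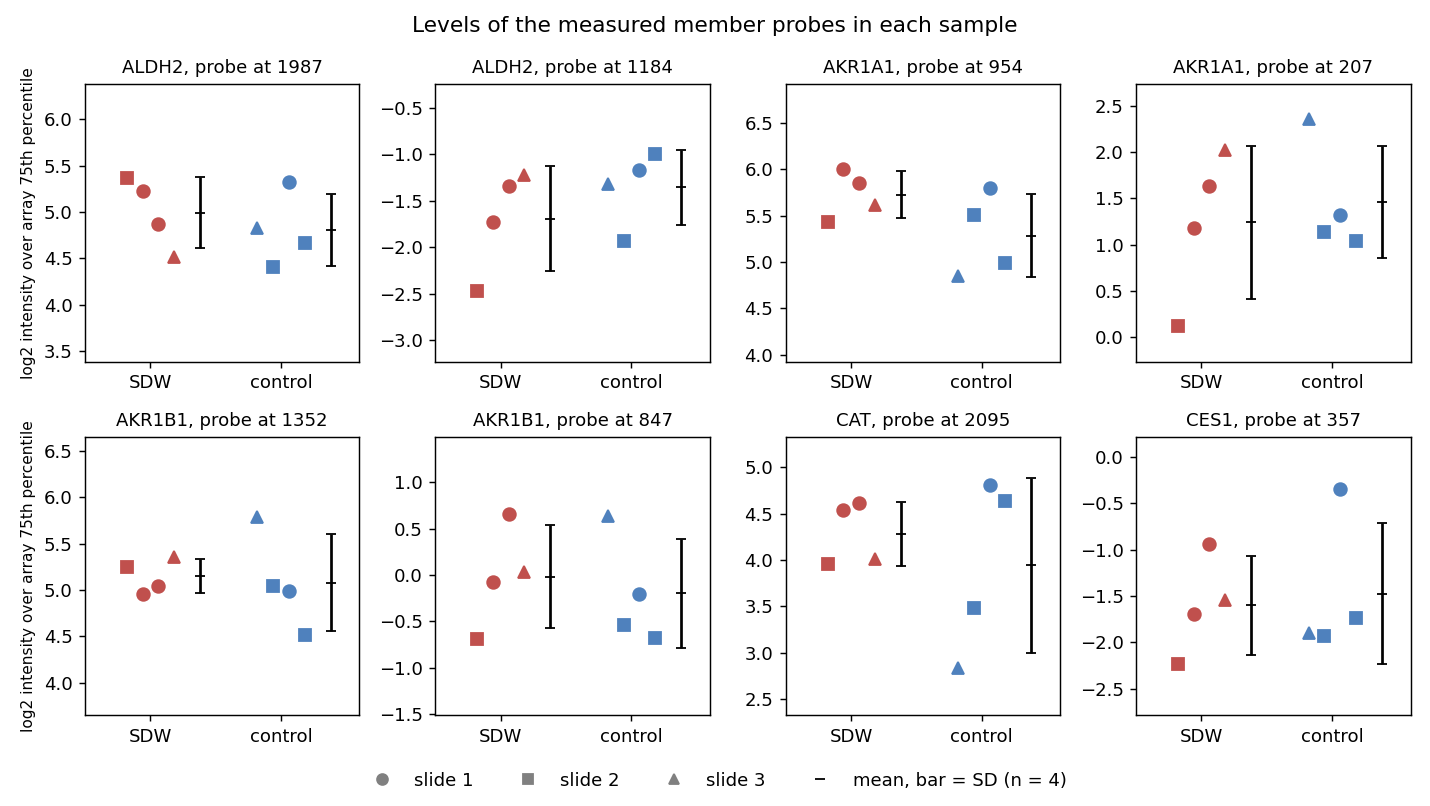
Level (log2 processed intensity over the 75th percentile of the array) of the 8 kept member probes in each SDW sample (red, left) and control sample (blue, right), with the mean and SD of 4 samples beside them and the slide given by the symbol. The diets overlap in each panel, and several panels, such as AKR1A1 at 207, group by slide.

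ALDH2 is the mitochondrial enzyme that clears acetaldehyde, and its probe at 1987 was the one of highest mean level. That probe read 5.37, 5.22, 4.87 and 4.51 in SDW samples 1 to 4, against 4.82, 4.40, 5.32 and 4.66 in control samples 1 to 4. The highest 3 values came from SDW 1, control 3 and SDW 2, and the lowest from control 2, so the diets were interleaved. The means were 4.99 ± 0.38 in SDW and 4.80 ± 0.39 in control (SD, n = 4 each), a log2 difference of 0.19 (SE 0.28, 95% interval −0.44 to 0.82, limma adjusted p = 1.00). As a ratio, this is 1.14 with an interval of 0.735 to 1.77.

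The ALDH2 probe at 1184 leaned the other way. It read −2.48, −1.73, −1.34 and −1.23 in SDW, against −1.32, −1.93, −1.17 and −0.996 in control. SDW 1 was the lowest sample here, although it was the highest at 1987. The means were −1.69 ± 0.56 in SDW and −1.35 ± 0.41 in control (SD, n = 4 each), a log2 difference of −0.34 (SE 0.33, 95% interval −1.08 to 0.40, limma adjusted p = 1.00). Leaving out SDW 1 brought that difference to −0.079. At this probe the signals were between 10.97 and 22.04 units in SDW and between 13.3 and 29.4 in control, close to the lowest signals flagged as well above background, which lay between 9.02 and 16.4 across arrays. The probe at 487 was not well above background in any sample.

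AKR1A1, or aldehyde reductase, reduces a broad set of aldehydes to alcohols, and its probe at 954 had the smallest p of the 8 member probes. It read 5.43, 5.9997, 5.86 and 5.62 in SDW, against 4.85, 5.50, 5.80 and 4.99 in control. The highest 2 values were SDW samples and the lowest 2 were control samples, but control 2 and control 3 lay above the lowest SDW sample. The means were 5.73 ± 0.25 in SDW and 5.28 ± 0.44 in control (SD, n = 4 each), a log2 difference of 0.44 (SE 0.27, 95% interval −0.17 to 1.05). That is a ratio of 1.36 with an interval of 0.889 to 2.08. The unadjusted limma p was 0.139 and the adjusted p 1.00, and 6.09% of all kept probes had an unadjusted p at least as small.

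The AKR1A1 probe at 207 did not follow it. It read 0.12, 1.18, 1.64 and 2.02 in SDW, against 2.35, 1.13, 1.32 and 1.04 in control. Here SDW 1 stood lowest and control 1 highest, and control 1 was the lowest sample at 954. The means were 1.24 ± 0.82 in SDW and 1.46 ± 0.61 in control (SD, n = 4 each), a log2 difference of −0.22 (SE 0.44, 95% interval −1.20 to 0.76, limma adjusted p = 1.00). The sign rested on these samples: the difference was 0.076 without control 1 and 0.15 without SDW 1.

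AKR1B1, or aldose reductase, turns glucose into sorbitol in the polyol pathway and also reduces aldehydes made from lipids. Its probe at 1352 read 5.25, 4.95, 5.04 and 5.35 in SDW, against 5.78, 5.04, 4.99 and 4.51 in control. Both the highest and the lowest sample were controls, and the SDW samples lay between them. The means were 5.15 ± 0.18 in SDW and 5.08 ± 0.52 in control (SD, n = 4 each), a log2 difference of 0.069 (SE 0.29, 95% interval −0.57 to 0.71, limma adjusted p = 1.00). Without control 4 the difference was −0.12.

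The probe at 847 of AKR1B1 read −0.69, −0.079, 0.66 and 0.030 in SDW, against 0.63, −0.54, −0.21 and −0.68 in control. SDW 3 and control 1 were the highest samples, and SDW 1 and control 4 the lowest. The means were −0.020 ± 0.55 in SDW and −0.20 ± 0.59 in control (SD, n = 4 each), a log2 difference of 0.18 (SE 0.37, 95% interval −0.64 to 1.00, limma adjusted p = 1.00). It was −0.049 without SDW 3. The probes at 588 and 741 were not well above background on any array, with signals of 2.02 to 2.54 in SDW and 2.10 to 4.38 in control.

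CAT, or catalase, breaks down hydrogen peroxide in peroxisomes and can oxidise ethanol while doing so. Its probe at 2095 read 3.95, 4.54, 4.61 and 4.01 in SDW, against 2.84, 3.48, 4.81 and 4.64 in control. The 4 SDW samples lay within the span of the controls, whose lowest 2 and highest 2 samples lay on either side of them. The means were 4.28 ± 0.35 in SDW and 3.94 ± 0.94 in control (SD, n = 4 each), a log2 difference of 0.34 (SE 0.43, 95% interval −0.63 to 1.31, limma adjusted p = 1.00). The lowest sample, control 1, set the sign: without it the difference was −0.030, and without control 3 it was 0.63. The CAT probe at 729 was not well above background in any sample. The fungal probe set apart gave a log2 difference of 0.28 (SE 0.28, limma adjusted p = 1.00).

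CES1 splits ester bonds in drugs and lipids, and in humans it is found in liver and in monocytes. Its probe at 357 was dim, with levels of −2.23, −1.70, −0.94 and −1.54 in SDW, against −1.89, −1.93, −0.34 and −1.73 in control. Control 3 was the highest sample, followed by SDW 3, and the other 6 lay together. The means were −1.60 ± 0.53 in SDW and −1.47 ± 0.76 in control (SD, n = 4 each), a log2 difference of −0.13 (SE 0.41, 95% interval −1.04 to 0.78, limma adjusted p = 1.00). Without control 3 the difference was 0.25, and without SDW 1 it was 0.083. The probe at 1030 stayed below the flag in each sample, with its highest signal, 8.24, in SDW 4.

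Which slide a sample lay on accounted for more of the spread of these probes than diet did. Taken alone, slide accounted for 23.4% to 75.5% of the variance of a member probe over the 8 samples, and diet for 1.03% to 33.2%. The share of slide was the larger for 8 of 8, a count that was not taken over all kept probes. Over all kept probes the medians were 44.7% for slide and 4.97% for diet. Slide has 3 levels and diet 2, so slide takes up more of the variance by its form alone. The shares and the count therefore do not set slide and diet on equal terms.

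Within slides, AKR1A1 at 954 was the only member probe of 8 whose difference had the same sign on each slide, which was so for 27.7% of all kept probes. Its log2 difference was 0.13 on slide 1, 0.18 on slide 2 and 0.77 on slide 3. For ALDH2 at 1987 the values were −0.28, 0.83 and −0.31 on slides 1, 2 and 3, and for ALDH2 at 1184 they were −0.37, −1.01 and 0.091. AKR1A1 at 207 gave 0.091, −0.97 and −0.34. The most uneven gene was CAT, at −0.23, −0.10 and 1.17. For AKR1B1 the differences were 0.011, 0.47 and −0.43 at 1352, and 0.50, −0.084 and −0.60 at 847. CES1 gave −0.98, −0.40 and 0.35. Each slide holds only 1 or 2 samples of a diet, so these values have no test of their own.

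With slide as a block in the limma fit, the log2 difference was 0.32 for AKR1A1 at 954, −0.41 for AKR1A1 at 207, −0.48 for ALDH2 at 1184, −0.41 for CES1, and between −0.014 and 0.20 for the other 4. The smallest adjusted p of the 8 was 0.777 in that fit. In it, 6.59% of all kept probes had an unadjusted p under 0.05, and 0% passed after adjustment. At AKR1A1 at 207, the 2 samples of slide 3 were the highest, with an average of 2.19 on slide 3 and 1.07 on the others. CAT averaged 3.42 on slide 3 and 4.34 on the others, but this rested on control 1 (2.84). For CAT, SDW 4 (4.01) lay within the range of the other slides. The part of slide in these levels beyond these values was not tested.

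**Figure D2:**
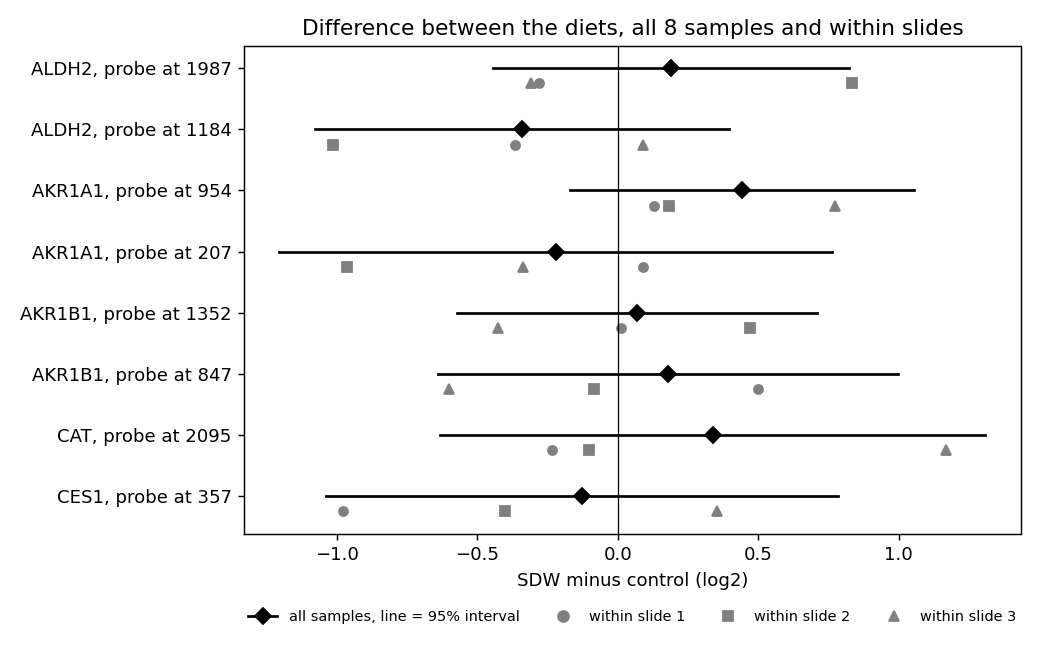
Log2 difference (SDW minus control) of each kept member probe over all 8 samples, with its 95% interval from limma (black), and within each slide (grey symbols). The interval of each probe crosses 0, and only AKR1A1 at 954 has all 3 slides on the same side.

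ALDH2, AKR1A1 and AKR1B1 each had a pair of kept probes, which allowed the same gene to be read at different stretches. After each probe was centred on its own mean over the 8 samples, the AKR1B1 probes lay closest, with a root mean square gap of 0.42 on the log2 scale. Their largest gap, 0.84, was in SDW 3. The ALDH2 probes differed by 0.66, with the largest gap of 1.42 in SDW 1. The AKR1A1 probes differed by 0.79, with the largest gap of 1.66 in control 1.

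Both probes of a gene lay on the same side of their means in 5 of 8 samples for AKR1A1 and AKR1B1, and in 2 of 8 for ALDH2. Over all 8 samples, the SD of single probes was 0.37 for ALDH2 at 1987 and 0.49 at 1184, 0.41 for AKR1A1 at 954 and 0.68 at 207, and 0.37 for AKR1B1 at 1352 and 0.54 at 847. The root mean square gap was larger than the SD of either probe for ALDH2 (0.66) and AKR1A1 (0.79). For AKR1B1 (0.42) it lay between the SDs of its probes. The difference between the diets was higher at 954 than at 207 by 0.66 for AKR1A1 and higher at 1987 than at 1184 by 0.53 for ALDH2, and these gaps were not tested. For AKR1B1 it was −0.11 for the probe at 1352 minus that at 847.

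**Figure D3:**
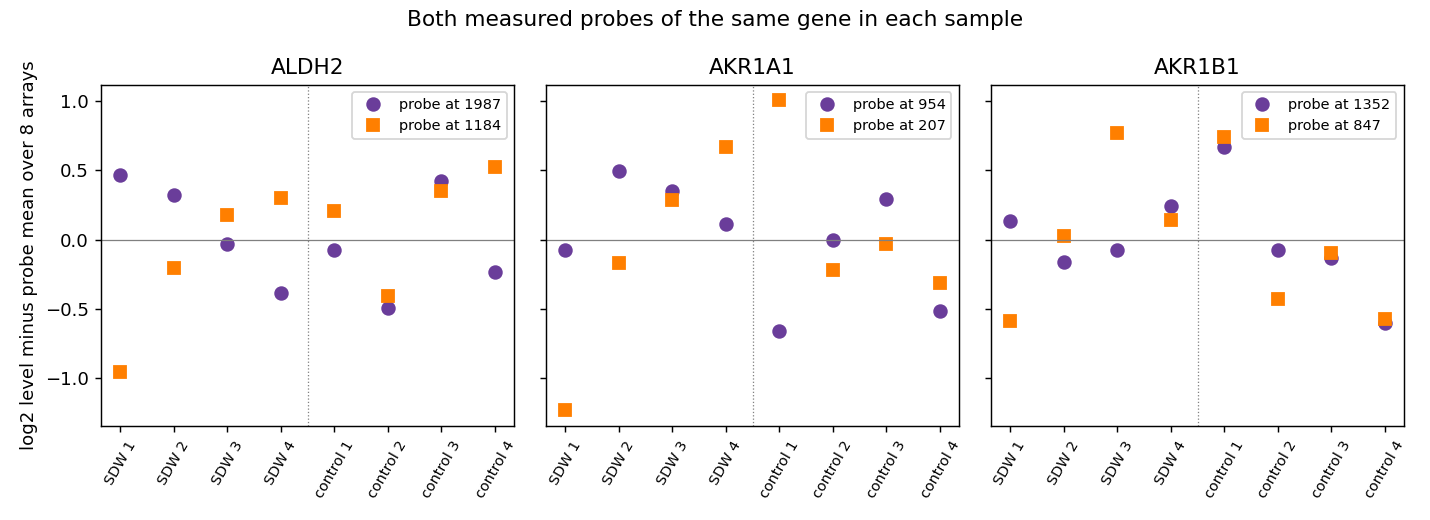
Levels of both kept probes of ALDH2, AKR1A1 and AKR1B1 in each sample, on the log2 scale and centred on each probe's own mean over 8 arrays, with SDW samples left of the dotted line and control samples right of it. The probes of AKR1B1 run close in most samples, while those of AKR1A1 part most in control 1 and those of ALDH2 in SDW 1.

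For each member, read at its probe of highest mean level, the 3 other named genes with the closest pattern over the 8 samples were found by the root mean square gap of centred log2 levels. AKR1B1 had the closest match, OAS1, a sensor of double-stranded RNA, at a gap of 0.085. OAS1 read 7.05, 6.69, 6.93 and 7.10 in SDW, against 7.37, 6.86, 6.77 and 6.21 in control, which is highest in control 1 and lowest in control 4, as AKR1B1 was. CYBA, a subunit of the phagocyte NADPH oxidase, followed at 0.12, and GANAB, a glucosidase that trims glycans in the endoplasmic reticulum, at 0.13.

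AKR1A1 was closest to ATP5G1, which encodes subunit c of ATP synthase (0.18), PRKAR2A, a regulatory subunit of protein kinase A (0.19), and GOT2, the mitochondrial aspartate aminotransferase (0.20). ALDH2 was closest to SDHB, a subunit of succinate dehydrogenase (0.19), ATP6V1H, a subunit of the vacuolar proton pump (0.20), and LMO4, a LIM domain protein (0.20). CES1 lay nearest to BHMT, a homocysteine methyltransferase (0.20), PNPLA2, the triglyceride lipase of adipose tissue (0.20), and UCP2, a mitochondrial carrier (0.23). These 3 genes were also highest in control 3, at 3.72 for BHMT, 5.23 for PNPLA2 and 8.30 for UCP2. The gap grows with a gene's own spread, and CAT, with the largest SD of the members (0.68), also had the largest gaps. Its nearest genes were UBE2D3, a ubiquitin-conjugating enzyme (0.30), CYP51, a sterol demethylase (0.33), and DLD, dihydrolipoamide dehydrogenase (0.34). These genes were picked as the nearest of the 1087 named genes kept, and share arrays and slides with the members, so the gaps are a description.

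**Figure D4:**
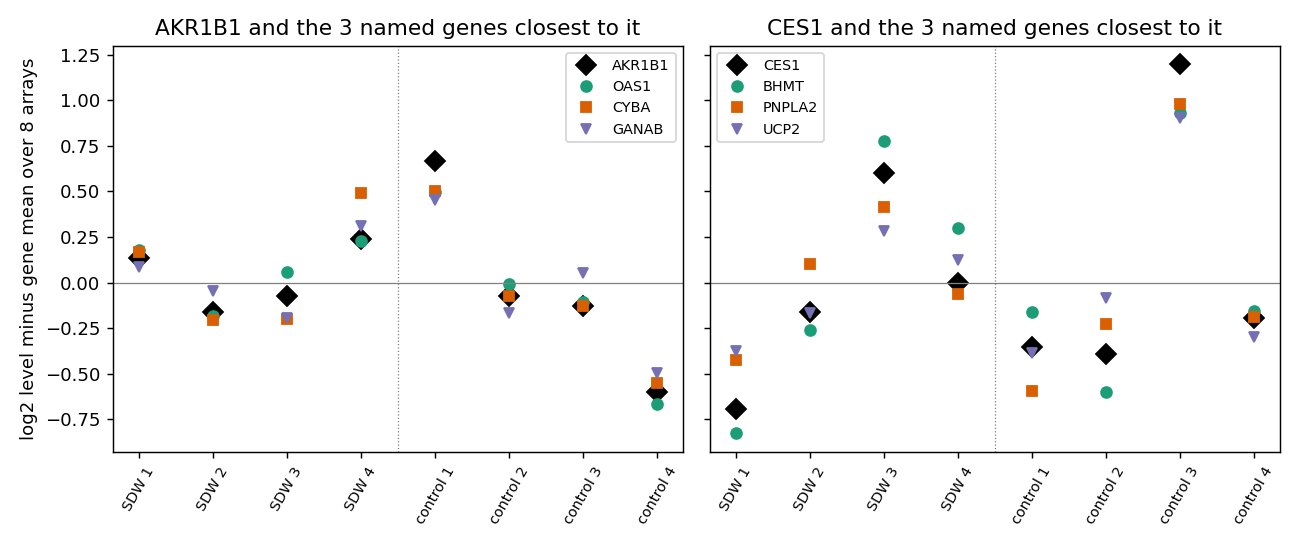
Log2 levels of AKR1B1 (left) and CES1 (right) with the 3 named genes closest to each, centred on each gene's mean over 8 arrays, with SDW samples left of the dotted line and control samples right of it. The AKR1B1 set spans its range between control 1 and control 4, and the CES1 set peaks in control 3.

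Ahead of ALDH2 in the pathway, little could be read. Of 15 listed genes of alcohol dehydrogenases and microsomal ethanol oxidation, 3 were on the array under their names and 1 was kept. This was CYB5A, an electron donor to cytochrome P450 enzymes, with a log2 difference of −0.12 (SE 0.55). CYP2E1 and CYP3A29 were well above background on fewer than 4 arrays. A probe described as the pi subunit of human alcohol dehydrogenase was not well above background on any array. Of 18 listed aldehyde dehydrogenases, only ALDH2 was on the array under its name, and it was kept. The others could not be read by name. A probe described as human ALDH1L2, a folate enzyme of the same family, was well above background in SDW 1 and SDW 2 alone. Its levels there were −1.50 and −1.60, and this is too few arrays for the test. These arrays had the highest 75th percentiles, at 61.0 and 73.1 units. The share of all probes flagged in SDW samples alone was not taken. The probe described as macaque ALDH3A2, the fatty aldehyde dehydrogenase, was not well above background in any sample.

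Acetate is activated by acetyl-CoA synthetases. A probe described as mouse ACSS1, the mitochondrial form, was well above background in all 8 samples, at 2.48, 1.57, 1.76 and 2.40 in SDW, against 2.64, 2.12, 1.15 and 1.17 in control. The diets overlapped, with a log2 difference of 0.28 (SE 0.39, limma adjusted p = 1.00). Probes described as ACSS2, the cytoplasmic form, and as a bovine acetyl-CoA synthetase were not well above background on any array. ACLY, which makes acetyl-CoA from citrate, gave a log2 difference of 0.091 (SE 0.23).

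Of 26 listed reductases, 8 were on the array under their names. Beside AKR1A1 and AKR1B1, 2 more of these were kept. CBR1, a carbonyl reductase, gave −0.19 (SE 0.25), and DHRS4, a peroxisomal reductase, gave −0.28 (SE 0.60), both as log2 differences. Over these 4 genes, 2 were higher and 2 lower in SDW by mean, with a median of −0.062. AKR1C1, AKR1CL1, AKR1E2 and CBR2 were on the array and not kept. In the esterase list of 18 genes, 8 were on the array by name and 6 were kept, 3 higher and 3 lower with a median of −0.017. They included FAAH, which splits fatty acid amides, at −0.24 (SE 0.32), PON2, a lactonase, at 0.16 (SE 0.35), and ESD, an esterase of formaldehyde detoxification, at 0.13 (SE 0.33). None of these genes passed an unadjusted limma p of 0.05.

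Catalase was set beside other peroxisomal and peroxide enzymes. Of 43 peroxisomal genes 10 were on the array by name and 8 were kept. Of these, 5 were higher and 3 lower in SDW by mean, with a median of 0.10. They included PHYH, which oxidises phytanic acid (log2 difference 0.41, SE 0.26), and CRAT, carnitine acetyltransferase (−0.48, SE 0.46). Of 16 genes that remove peroxide or superoxide 11 were on the array by name. Of these, 10 were kept, 5 higher and 5 lower, with a median of −0.0090. Thioredoxin (TXN) gave −0.52 (SE 0.31), the mitochondrial superoxide dismutase SOD2 gave −0.41 (SE 0.31), and glutathione reductase (GSR) gave 0.31 (SE 0.34). NRF2 regulates the response to reactive aldehydes and oxidants. Of 16 genes listed for NRF2, 7 were on the array by name and 5 were kept, 2 higher and 3 lower, with a median of −0.018. That list held NRF2 itself and its inhibitor beside the targets, and only targets were kept. Haem oxygenase (HMOX1) gave 0.57 (SE 0.43), MGST1 gave 0.25 (SE 0.41), and the ferritin chains FTH1 and FTL gave −0.12 (SE 0.26) and −0.11 (SE 0.30). In these lists, which hold members too, 0 genes passed at an adjusted or an unadjusted limma p of 0.05.

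In whole blood, fewer cells of a type and less RNA per cell cannot be told apart. Of 14 monocyte genes 9 were on the array by name and 8 were kept, 3 higher and 5 lower in SDW by mean. Their summed level was 514 to 922 in SDW and 605 to 850 in control, in multiples of the 75th percentile. Such sums weigh the brightest genes most, so they do not read the listed genes equally. CD14 gave a log2 difference of −0.73 (SE 0.49). CCR2, a chemokine receptor, gave 0.88 (SE 0.24), with a limma adjusted p of 1.00. It was the only one of the 8 with an unadjusted limma p under 0.05, where 1.45% of all kept probes passed. Of 17 listed neutrophil genes 7 were on the array by name, and all 7 were kept. All 7 had lower means in SDW, where 52.9% of all kept probes had higher means. The median of the 7 genes was −0.43, with sums of 470 to 809 in SDW and 606 to 952 in control. These genes were read in the same 8 samples, and 0 of the 7 passed an unadjusted limma p of 0.05. Of 15 erythroid genes 2 were on the array by name, and only HBE1, an embryonic haemoglobin chain, was kept (−0.28, SE 0.41). A probe described as pig haemoglobin alpha was not well above background on any array. Of 11 T cell genes 7 were on the array by name and 6 were kept, 3 higher and 3 lower in SDW by mean. Their median was −0.091, with −0.31 (SE 0.44) for CD3E and 0.26 (SE 0.31) for CD3D. Of 10 platelet genes 5 were on the array by name and all 5 were kept, with a median of 0.097. Of 9 hepatocyte genes on the array 7 were not kept, albumin among them. ACTB, the reference gene, gave 0.17 (SE 0.22). The part of cell composition in the levels of the 5 enzymes was not tested.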

How the data were processed

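Whole blood RNA was hybridised to Agilent 1-colour arrays, with 1 array per sample. The deposited files hold spot intensities; per the file headers they come from Feature Extraction 10.1.1.1 (9.5.3.1 per the submitters' processing notes), and the processed signal is background-subtracted and not normalized between arrays. No genome build is named for the array data, and the build given below is that of the gene table used for names. After removal of control and outlier spots, replicate spots were averaged, and log2 intensity minus the 75th percentile of the array was tested in R 4.3.3 with limma 3.58.1 (two-sided, Benjamini-Hochberg over kept probes, threshold 0.05, no covariate). A gene was read at its kept probe of highest mean level. Of all probes, 2986 were named through the files and the RefSeq pig gene table (Sscrofa11.1), and 40617 are unnamed here. Some further probes of the pathway were named by their description alone, chosen after the files were seen.

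Members and gene lists were chosen with earlier results of these data known. Genes named are the members, up to 4 genes of smallest p in a list, the 3 nearest genes of each member, and ACTB, CD3E and CD14; some genes set by this rule are not reported here. In the authors' value table of intensities, 7 of 8 columns matched another replicate of the same diet, so replicate numbers follow the scanner files. Samples with the same number share a week in the descriptions, and the correlations of their deviations from the diet means were −0.17, 0.11, 0.33 and −0.38 for numbers 1 to 4; by the value table's numbers they were 0.28, 0.25, 0.51 and 0.65, and which numbering is right is not known. The number of arrays limits the precision. Alternatives were other normalizations, filters and blocks, and leaving out each sample.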

Additional observations from a re-analysis of the deposited data

Results flagged for a closer look

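At the CES1 probe at 357, control 3 read −0.34, while the other control samples read between −1.93 and −1.73. Its gap to the nearest control was 0.877 of the range of the group, above Dixon's 95% critical value for 4 samples. This was 1 of 18 groups of 4 tested in this way (the 8 kept member probes and the fungal probe set apart, in both diets), and chance marks about 1 group in 20. The difference between the diets without it was 0.25, on the log2 scale.

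A probe described as the S isoenzyme of horse alcohol dehydrogenase was well above background in SDW 4 and in no other sample. Its level was 2.38 in SDW 4, and its level in the other 7 samples was between −4.83 and −3.37. The signal was 208 units in SDW 4 and between 2.29 and 4.65 in the others. On the array of SDW 4, 458 probes (1.05% of all) were well above background there alone, and this count ran between 135 in SDW 3 and 689 in SDW 2 over the 8 arrays. HP, which encodes haptoglobin, and TF, which encodes transferrin, were also highest in SDW 4, at 1.76 and 0.92. The next highest were 0.29 for HP in control 3 and 0.69 for TF in control 1, the other sample of slide 3. Of 9 hepatocyte genes on the array, these were the only 2 kept. The filter drops a probe that is well above background in SDW 4 alone. The levels of the other 7 in SDW 4 are therefore not given by it. The source of the signal in SDW 4 was not tested. No test can be made on 1 sample.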

How the results depend on the processing

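Of 144 differences of the 8 member probes recomputed under settings that can move them, 136 kept their sign. Another 5 settings (both replicate blocks, both filters and the variance trend) leave the difference itself as it is. Under every setting run, none passed an adjusted p of 0.05. The smallest adjusted p was 0.777, with slide as a block. AKR1A1 at 954 and both ALDH2 probes kept their sign in each alternative run, but their size moved. ALDH2 at 1184 was −0.043 with normexp and quantile scaling and −0.075 with normexp and the 75th percentile. Leaving out single samples gave 0.30 to 0.61 for AKR1A1 at 954, 0.056 (without control 2) to 0.36 (without control 3) for ALDH2 at 1987, −0.53 to −0.079 for ALDH2 at 1184, −0.48 to 0.15 for AKR1A1 at 207, −0.049 to 0.45 for AKR1B1 at 847, −0.12 to 0.30 for AKR1B1 at 1352, −0.030 to 0.63 for CAT at 2095 and −0.35 to 0.25 for CES1 at 357. With slide as a fixed block, AKR1B1 at 847 gave −0.014; the cause was not tested.

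Adjusted calls over all probes numbered 0 except without both arrays of slide 3, where there was 1, an unnamed probe (log2 difference 5.21 there, 2.80 with all samples). Probes at an unadjusted p under 0.05 numbered 251, and became 1143 with slide as a fixed block, 632 with slide as a random block, 542 without slide 3, 162 with normexp and the 75th percentile (269 with normexp and quantile scaling), 823 with no filter (more probes tested) and 165 with probes above background on all 8 arrays (fewer tested). Leaving out single samples gave 179 to 517, among them 420 without control 1, 441 without SDW 3 and 517 without SDW 4. The replicate block by the labels' numbers gave 239 and changed no call. A block by the numbers of the value table, chosen after seeing the data, gave 904 and no adjusted call. Those numbers share a slide in 3 of 4 pairs. Dim probes (ALDH2 at 1184, CES1 at 357) limit what can be read there.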
